A study of Bos taurus with 8 samples.

Results

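The genes described here are 8 enzymes of glycolysis (HK1, GPI, ALDOA, TPI1, GAPDH, PGK1, ENO1 and PKM) and the lactate dehydrogenase subunits LDHA and LDHB. They were taken by name, and all 10 of 10 were present among the 16606 genes of the table and passed the filter on low values. Glycolysis splits glucose into pyruvate in the cytosol, and lactate dehydrogenase converts pyruvate and lactate into each other. Cattle embryos in early cleavage are known to rely mainly on pyruvate and lactate oxidised in mitochondria and to use little glucose until after their genome is activated. Cumulus cells, the somatic cells around the oocyte, are known to be strongly glycolytic and to pass pyruvate on to it.

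The libraries came from cattle embryos fertilised in vitro and taken with 4 or with 8 cells, each from a pool of 5 embryos, with 2 libraries in each of 4 groups. Edited embryos had received PEmax, a prime editor made of a nicking Cas9 and a reverse transcriptase, with a guide RNA by injection into the zygote, to write the change labelled A148G in RPL12, a gene of the large ribosomal subunit. Control embryos were fertilised and cultured from the same kind of abattoir oocytes. The labels do not say whether controls were injected, so the edit and the injection cannot be told apart. The titles call the treated samples base edited, whereas the protocol names PEmax, and these were taken to mean the same treatment. The labels also do not say what share of alleles carried the edit or whether cumulus cells were stripped. They give the 4-cell samples the source name of oocytes although the titles say embryo. Nothing in the labels says that replicates came from separate culture runs, so the p-values measure the spread between these libraries, which may be technical.

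Values are CPM, reads per 1000000 reads. Between 33527531 and 35122409 reads per library were recovered from the deposited values, and the listed genes held 366 to 142457 reads each in a library. Replicates correlated at a Pearson r of 0.971 to 0.978 across genes on the log2 scale. RPL12 lay between 11.9 and 33.6 CPM in the 4 edited libraries and between 96.3 and 174 CPM in the 4 controls. A base change need not alter the RNA level of its gene, so this does not check the edit itself. In the test below, a log2 fold change is taken on log2(CPM + 1) by limma, and a gene is called at a Benjamini-Hochberg adjusted p-value under 0.05 over all 12129 genes tested.

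Edited and control embryos were first compared at the 4-cell stage. In edited embryos 9 of the 10 genes fell and none rose. LDHA was the gene that did not pass. In the same test 25.8% of all tested genes were called lower and 18.9% higher, together 44.7%. In the median the 10 genes had -3.09 as log2 fold change, against -0.02 over all genes tested. Both edited libraries lay below both controls for 10 of 10 genes, as they did for 37.5% of all tested genes.

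The first steps of the pathway prime glucose. HK1 is a hexokinase, which traps glucose in the cell as glucose 6-phosphate. At the 4-cell stage HK1 stood at 114 and 107 CPM in the control libraries and at 55.4 and 46.3 CPM in the edited ones. Edited libraries were thus both lower, by 2.17-fold in the mean (limma log2 fold change -1.11 with SE 0.28, adjusted p-value 0.00398). GPI turns glucose 6-phosphate into fructose 6-phosphate. It stood at 159 and 169 CPM in controls and at 53.9 and 55.2 CPM in edited embryos. The replicates lay close together in both groups, and the limma log2 fold change was -1.57 with SE 0.24 (adjusted p-value 7.49e-05).

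The genes for splitting the sugar and for interconverting its products had larger changes. ALDOA, an aldolase that cleaves fructose 1,6-bisphosphate, stood at 546 and 463 CPM in 4-cell controls and at 37.3 and 41.3 CPM in edited embryos. The groups were far apart, with a 12.8-fold difference of the means (limma log2 fold change -3.65 with SE 0.35, adjusted p-value 1.59e-06). TPI1, which interconverts the triose phosphates that the cleavage yields, stood at 233 and 196 CPM in controls and at 10.6 and 16.3 CPM in edited embryos. Its means differed 16.0-fold (limma log2 fold change -3.92 with SE 0.35, adjusted p-value 1.16e-06).

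Enzymes of the pay-off phase, in which NADH and ATP are made, fell as well. GAPDH, which oxidises glyceraldehyde 3-phosphate and is often used as a reference gene, stood at 4058 and 4177 CPM in 4-cell controls and at 399 and 527 CPM in edited embryos. The control replicates differed by 1.03-fold whereas the group means differed 8.89-fold (limma log2 fold change -3.16 with SE 0.31, adjusted p-value 1.81e-06). PGK1, which makes the pathway's first ATP, stood at 1176 and 1275 CPM in controls and at 68.5 and 151 CPM in edited embryos. Its edited replicates differed 2.2-fold, the widest replicate gap of any of the 10 genes at this stage, and still lay far below the controls (limma log2 fold change -3.58 with SE 0.34, adjusted p-value 1.52e-06).

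ENO1, an enolase that makes phosphoenolpyruvate, had the largest change of the 10 genes. It stood at 2314 and 1994 CPM in 4-cell controls and at 97.3 and 138 CPM in edited embryos. The means differed 18.3-fold (limma log2 fold change -4.20 with SE 0.33, adjusted p-value 6.43e-07). PKM, the pyruvate kinase that ends glycolysis, stood at 319 and 292 CPM in controls and at 38.8 and 35.0 CPM in edited embryos. The limma log2 fold change was -3.02 with SE 0.30 (adjusted p-value 1.86e-06). Gene totals do not separate the PKM1 and PKM2 forms, which the gene makes by alternative splicing.

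Of the lactate dehydrogenase subunits, LDHB passed the test and LDHA did not. LDHB, the subunit typical of heart, stood at 931 and 1168 CPM in 4-cell controls and at 247 and 297 CPM in edited embryos (limma log2 fold change -1.94 with SE 0.22, adjusted p-value 5.33e-06). LDHA, the subunit typical of skeletal muscle, stood at 1405 and 1555 CPM in controls and at 965 and 1344 CPM in edited embryos. The groups did not overlap, but the gap between the closest libraries was smaller than the gap between the edited replicates. LDHA thus had a log2 fold change of -0.38 (95% interval -0.91 to 0.16, limma adjusted p-value 0.241). That interval leaves room for a modest fall. It overlaps the interval of HK1, -1.69 to -0.52, and lies above those of the 8 remaining genes, but whether the change of LDHA differed from theirs was not tested.

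**Figure D1:**
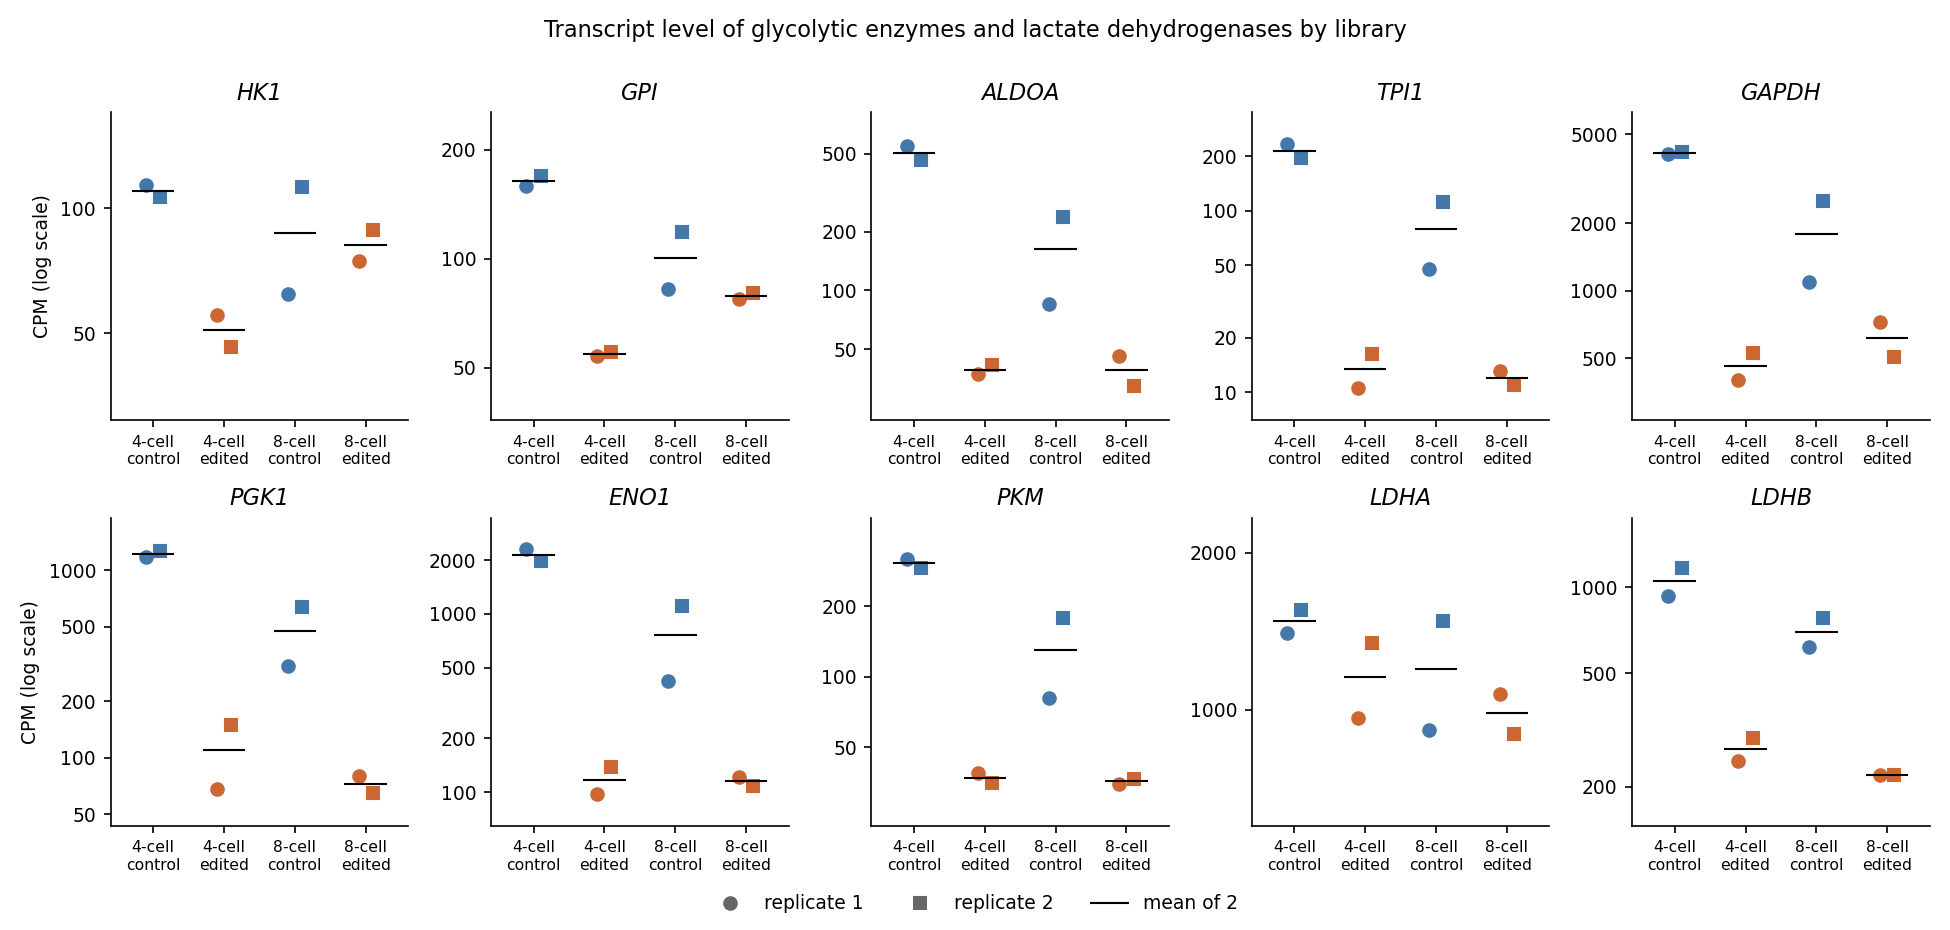
Level of each of the 10 genes in CPM (vertical log axis, its range set per gene) in the 4 groups, with replicate 1 as circles, replicate 2 as squares and the mean of the 2 libraries as a line. Edited libraries (orange) lie below both 4-cell controls (blue) for every gene, and the 8-cell control libraries lie apart from each other, as for ALDOA at 85.5 and 239 CPM.

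The same comparison at the 8-cell stage called 7 of the 10 genes lower and none higher. Of all tested genes 14.5% were called lower there and 1.08% higher, together 15.6%. The 10 genes had a median of -1.69 on the log2 scale, against 0.00 over all genes tested. Both edited libraries lay below both controls for 8 of 10 genes, and for 32.7% of all tested genes. HK1 and LDHA were the genes that overlapped. With the stages put together, all 4 edited libraries lay below all 4 controls for the other 8 genes, against 19.6% of all tested genes. The 7 called genes were ALDOA, TPI1, GAPDH, PGK1, ENO1, PKM and LDHB, all of which were also called lower at the 4-cell stage. Genes called lower at both stages made up 12.4% of all tested genes.

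PGK1, ENO1 and TPI1 had the largest changes at the 8-cell stage. PGK1 stood at 308 and 642 CPM in 8-cell controls and at 79.8 and 65.3 CPM in edited embryos (limma log2 fold change -2.61 with SE 0.34, adjusted p-value 5.87e-05). ENO1 stood at 420.3 and 1110.2 CPM in controls and at 122 and 109 CPM in edited embryos (limma log2 fold change -2.56 with SE 0.33, adjusted p-value 5.28e-05). TPI1 stood at 47.7 and 112 CPM in controls and at 13.1 and 10.99 CPM in edited embryos (limma log2 fold change -2.51 with SE 0.35, adjusted p-value 8.75e-05). For each of these even the lower control library lay well above both edited ones.

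ALDOA, PKM and GAPDH had log2 fold changes nearer 0. ALDOA stood at 85.5 and 239 CPM in controls and at 46.1 and 32.5 CPM in edited embryos (limma log2 fold change -1.86 with SE 0.35, adjusted p-value 0.0013). PKM stood at 81.3 and 178 CPM in controls and at 34.6 and 36.6 CPM in edited embryos (limma log2 fold change -1.73 with SE 0.30, adjusted p-value 0.000576). GAPDH stood at 1091 and 2505 CPM in controls and at 727 and 505 CPM in edited embryos (limma log2 fold change -1.45 with SE 0.31, adjusted p-value 0.00363). In each case it was control replicate 2 that lay highest, and control replicate 1 was the nearer to the edited libraries.

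LDHB fell at the 8-cell stage too. It stood at 618 and 778 CPM in 8-cell controls and at 219.8 and 221 CPM in edited embryos (limma log2 fold change -1.65 with SE 0.22, adjusted p-value 5.81e-05), and its control libraries were the closest to each other of the 10 genes. LDHA stood at 915 and 1479.7 CPM in controls and at 1073 and 901 CPM in edited embryos. The groups overlapped and the log2 fold change was -0.24 (95% interval -0.77 to 0.29, limma adjusted p-value 0.579).

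The first 2 enzymes did not pass at the 8-cell stage. HK1 stood at 62.0 and 113 CPM in controls and at 74.6 and 88.9 CPM in edited embryos, so that the edited libraries lay between the controls. Its log2 fold change was -0.04 (95% interval -0.62 to 0.54, limma adjusted p-value 0.947), and 0.01 with scaling by TMM factors. GPI stood at 82.7 and 118 CPM in controls and at 77.3 and 80.4 CPM in edited embryos (log2 fold change -0.32, 95% interval -0.82 to 0.18, limma adjusted p-value 0.418).

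All 10 genes were higher in replicate 2 than in replicate 1 of the 8-cell controls, by 1.26-fold for LDHB to 2.80-fold for ALDOA. So were 12 of 17 other glycolytic enzymes and 11 of 13 genes of glucose and lactate transport. Of 15 genes of mitochondrial pyruvate entry, 5 were higher and 9 lower. The counts for these lists include genes that did not pass the filter on low values. The share of all genes higher in replicate 2 was not computed. The size of the 8-cell changes rests on which of these control libraries is taken. Without control replicate 2, the 10 genes had a median of -1.15. GAPDH then had a log2 fold change of -0.85 and ALDOA one of -1.12. Without control replicate 1 the median was -2.17, and GAPDH had a log2 fold change of -2.04. Without edited replicate 2 that of GAPDH was -1.18. With no filter on low values GAPDH was not called (-1.45, limma adjusted p-value 0.0573), where 1354 of 16606 tested genes were called lower. In all, GAPDH lost its 8-cell call under 3 of 18 alternatives.

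**Figure D2:**
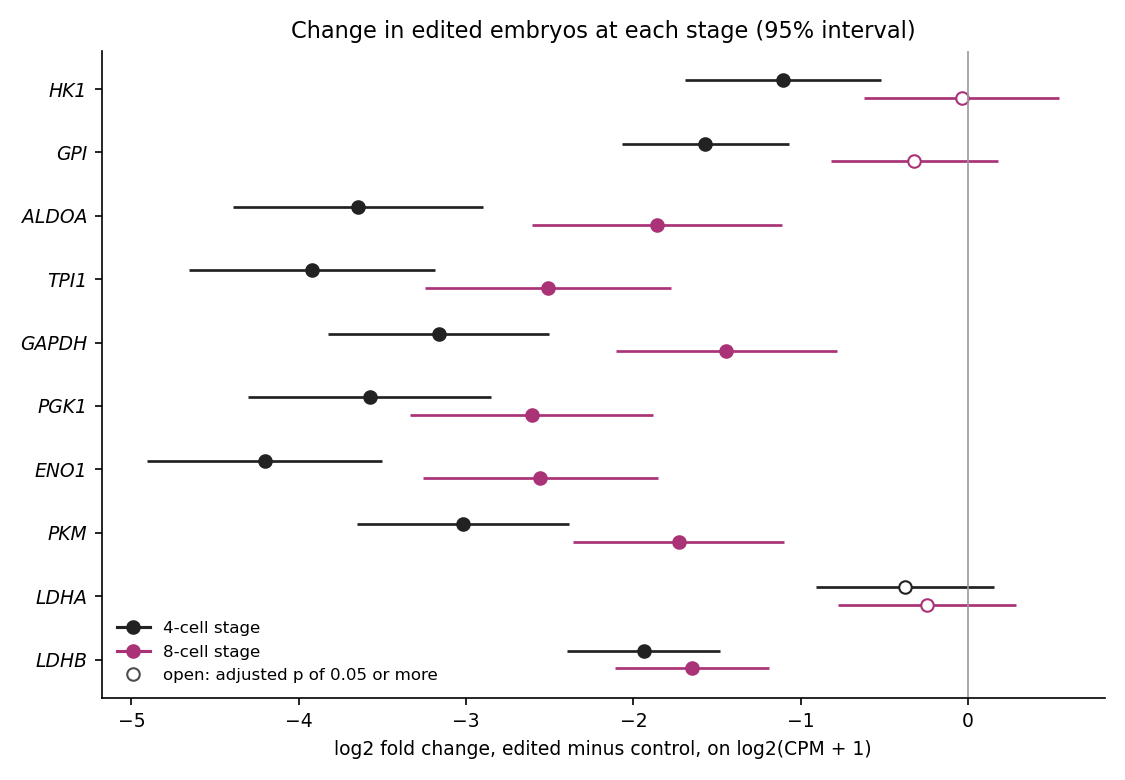
Log2 fold change of edited against control embryos on log2(CPM + 1) (horizontal axis) for each gene in pathway order, with limma's 95% interval, at the 4-cell (black) and 8-cell stage (purple). Filled points have an adjusted p-value under 0.05; the points of LDHA are open at both stages (-0.38 and -0.24), and those of HK1 and GPI are open at the 8-cell stage only.

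Whether the effect of editing differed between the stages was tested as the 8-cell effect minus the 4-cell effect. This difference was above 0 for all 10 genes, with a median of 1.27 on the log2 scale against -0.02 over all genes tested. GAPDH and GPI were called, with differences of 1.72 (SE 0.44, limma adjusted p-value 0.0416) and 1.25 (SE 0.33, limma adjusted p-value 0.0472), where 1.95% of all tested genes were called in that direction and 3.96% in either. ALDOA (1.79, adjusted p-value 0.0557) and ENO1 (1.65, adjusted p-value 0.0591) did not pass by limma. The smallest differences were those of LDHA (0.13, 95% interval -0.62 to 0.89) and LDHB (0.29, 95% interval -0.36 to 0.94). These calls are not firm. edgeR called 0 of the 10 genes, with 7 at an unadjusted p-value under 0.05, and 18 of all 14629 genes it tested. DESeq2 called 4 of the 10 and 1065 of all 10477. Limma called 0 of the 10 with TMM scaling and 0 with no filter on low values. In each of these settings 7 genes had an unadjusted p-value under 0.05. Over all genes the same settings called 366 of 12120 and 0 of 16606. Leaving out 1 library at a time, the median difference of the 10 genes ranged from 0.77 to 1.68.

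Stage was then compared within each condition. The control libraries used here also enter the comparisons above, so the values are given side by side and not as separate support. In control embryos 6 genes fell from the 4-cell to the 8-cell stage and none rose, with a median of -1.33. Of all tested genes 6.27% were called lower and 2.75% higher, together 9.02%. The 6 genes were ALDOA, ENO1, TPI1, PGK1, PKM and GAPDH. Mean GAPDH went from 4117 ± 84.1 CPM (SD, n = 2) to 1798 ± 999.9 CPM (SD, n = 2), a limma log2 fold change of -1.32 with SE 0.31 (adjusted p-value 0.0228). ALDOA had the largest fall, from 504 ± 58.7 to 162 ± 109 CPM (SD, n = 2 each; limma log2 fold change -1.81 with SE 0.35, adjusted p-value 0.0127). LDHA, LDHB, GPI and HK1 did not pass, with log2 fold changes of -0.34, -0.59, -0.72 and -0.39.

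Those stage calls in controls rest on the test and on single libraries. edgeR called 0 of the 10 genes, with 8 at an unadjusted p-value under 0.05, and 86 of all 14629 genes it tested. DESeq2 called 7 of the 10 and 1629 of all 10798. Limma called 0 of the 10 with no filter on low values and 0 when fitted to the control libraries alone. In each of these settings 8 genes had an unadjusted p-value under 0.05. Over all genes the same settings called 0 of 16606 and 173 of 12209. Leaving out 1 library at a time, the median of the 10 genes ranged from -1.91 to -0.75.

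In edited embryos limma called none of the 10 genes between the stages, and edgeR and DESeq2 called 0 as well. By limma 2 genes had an unadjusted p-value under 0.05. These were HK1, which went from 50.9 ± 6.41 CPM to 81.7 ± 10.1 CPM (SD, n = 2 each; log2 fold change 0.67, limma adjusted p-value 0.168), and GPI, at 54.5 ± 0.965 and 78.9 ± 2.2 CPM (SD, n = 2 each; log2 fold change 0.52, limma adjusted p-value 0.211). ENO1 stood at 117 ± 28.5 and 115 ± 9.27 CPM and PKM at 36.9 ± 2.75 and 35.6 ± 1.43 CPM (SD, n = 2 each). The 95% interval of the ENO1 difference was -0.71 to 0.70 on the log2 scale, so a modest change in either direction was not detectable. Of all tested genes 5.18% were called between the stages in edited embryos, 1.45% as higher and 3.73% as lower.

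The split of reads between LDHA and LDHB was followed library by library. Active lactate dehydrogenase is a tetramer of these subunits in any mix. LDHA took 60.1% and 57.1% of the reads of both genes in 4-cell controls and 79.6% and 81.9% in 4-cell edited embryos. In 8-cell controls its share was 59.7% and 65.5%, and in 8-cell edited embryos 83.0% and 80.3%. All 4 edited libraries thus lay above all 4 controls, and the stages differed little beside that. LDHA itself did not rise, with means of 1155 CPM in 4-cell edited embryos and 1480 CPM in controls. At the 8-cell stage its means were 987 and 1197 CPM, whereas LDHB was called lower at both stages. How often other pairs of genes separate in this way was not computed. A 95% Wilson interval spans at most 0.416 percentage points to either side, which covers counting error only, since amplified reads are not independent molecules. No test of the split was made. Within a stage, an exact two-sided permutation test of 2 libraries against 2 cannot give a p-value under 0.333. These shares are of reads and not corrected for transcript length, so they compare libraries and not the subunits.

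**Figure D3:**
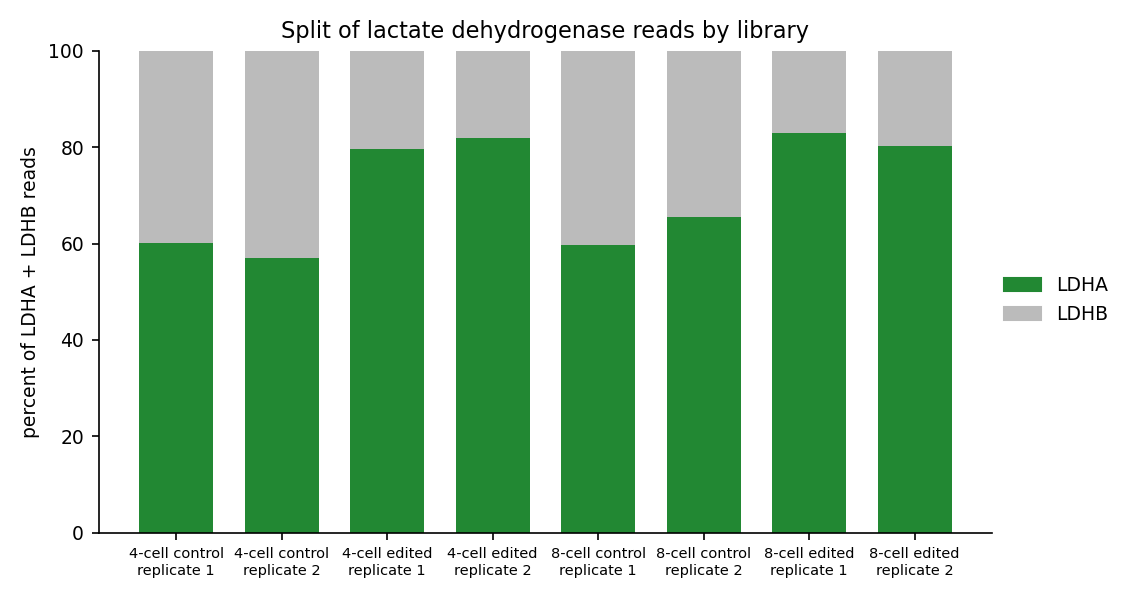
Share of LDHA (green) and LDHB (grey) in the reads of both genes, in percent (vertical axis), for each of the 8 libraries. LDHA holds 57.1% to 65.5% in the control libraries and 79.6% to 83.0% in the edited ones.

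LDHC, a lactate dehydrogenase known from testis and sperm, was present at every stage and moved the other way. It stood at 80.3 and 112 CPM in 4-cell controls and at 167 and 169 CPM in 4-cell edited embryos, and rose there (limma log2 fold change 0.82 with SE 0.23, adjusted p-value 0.00984). At the 8-cell stage LDHC stood at 141 and 127 CPM in controls and at 184 and 142 CPM in edited embryos and did not pass (log2 fold change 0.27, limma adjusted p-value 0.501). GAPDHS, the sperm form of GAPDH, was at most 5.23 CPM in every library. Reads of close relatives, such as the lactate dehydrogenases or the processed pseudogenes known for GAPDH and other glycolytic genes, may have been divided between them by the authors' counting, which leaves such genes uncertain.

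The remaining enzymes of glycolysis were taken from a list of 17 genes, of which 12 passed the filter. At the 4-cell stage 8 of the 12 fell and none rose (median -1.51), and at the 8-cell stage 3 fell and none rose (median -0.39), beside 25.8% and 14.5% of all tested genes called lower. PGAM1, a phosphoglycerate mutase acting between PGK1 and ENO1, stood at 587 CPM in 4-cell controls and 92.3 CPM in edited embryos (limma log2 fold change -2.65 with SE 0.25, adjusted p-value 1.33e-06). In 8-cell embryos PGAM1 stood at 209.8 CPM in controls and 104 CPM after editing (limma log2 fold change -0.96 with SE 0.25, adjusted p-value 0.0128). ALDOC, a second aldolase, fell at the 4-cell stage from 101 to 13.8 CPM (log2 fold change -2.79, limma adjusted p-value 2.27e-05). The phosphofructokinases, which control the pathway's committed step, were weak in every library. They were picked out after their values were seen: PFKL, PFKM and PFKP had means of 8.66, 4.13 and 8.13 CPM in 4-cell controls and of 0.598, 0.860 and 1.60 CPM in 4-cell edited embryos, and each was called lower there.

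Counts of called genes in the lists that follow stand beside the shares of all tested genes, which were 25.8% lower and 18.9% higher at the 4-cell stage and 14.5% lower and 1.08% higher at the 8-cell stage. Of 11 regulators of glycolysis tested, 3 rose and 3 fell in 4-cell embryos, and 0 rose and 2 fell in 8-cell embryos, which is near those shares. PFKFB1, whose product sets the level of the phosphofructokinase activator fructose 2,6-bisphosphate, stood at 34.5 CPM in 4-cell edited embryos and 14.9 CPM in controls (log2 fold change 1.11, limma adjusted p-value 0.0087). EGLN3, an oxygen-dependent hydroxylase that marks HIF proteins for degradation, stood at 17.7 and 6.99 CPM (log2 fold change 1.28, limma adjusted p-value 0.00763). TIGAR, which lowers fructose 2,6-bisphosphate, stood at 72.6 and 113 CPM (log2 fold change -0.62, limma adjusted p-value 0.033). HIF1A, a transcription factor that drives glycolytic genes under low oxygen, was called at the 8-cell stage, at 111 CPM in edited embryos and 214 CPM in controls (log2 fold change -0.92, limma adjusted p-value 0.0351).

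Of 9 genes of glucose and lactate transport tested, 4 fell at the 4-cell stage, where 25.8% of all tested genes did, and 2 at the 8-cell stage, where 14.5% did. None rose. SLC2A1, the glucose transporter GLUT1, stood at 68.0 and 59.1 CPM in 4-cell controls and at 10.6 and 12.7 CPM in edited embryos (limma log2 fold change -2.35 with SE 0.38, adjusted p-value 0.000149). At the 8-cell stage SLC2A1 stood at 13.99 and 37.8 CPM in controls and at 11.2 and 8.39 CPM in edited embryos (limma log2 fold change -1.17 with SE 0.38, adjusted p-value 0.0487). BSG, the basigin chaperone of the lactate transporters, fell from 351 CPM in 4-cell controls to 38.7 CPM (log2 fold change -3.15, limma adjusted p-value 6.14e-07) and from 122 CPM in 8-cell controls to 55.5 CPM (log2 fold change -1.11, limma adjusted p-value 0.00307). SLC16A1, the lactate and pyruvate transporter MCT1, was picked out after its values were seen as a case that did not pass at either stage (log2 fold changes 0.25 and -0.36).

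Of 14 genes tested that bring pyruvate into mitochondria and control its oxidation, 3 rose and 2 fell at the 4-cell stage, and 0 rose and 2 fell at the 8-cell stage. These counts are near or below the shares of all tested genes, 18.9% higher and 25.8% lower at the 4-cell and 14.5% lower at the 8-cell stage. PDHB, a subunit of the E1 part of pyruvate dehydrogenase, stood at 94.4 and 115 CPM in 4-cell controls and at 11.9 and 19.4 CPM in edited embryos (limma log2 fold change -2.69 with SE 0.32, adjusted p-value 8.5e-06). At the 8-cell stage PDHB had a limma log2 fold change of -2.50 with SE 0.32 (adjusted p-value 4.29e-05). MPC2, a subunit of the mitochondrial pyruvate carrier, fell from 104 to 29.7 CPM and from 57.9 to 27.5 CPM at the 2 stages (log2 fold changes -1.76 and -1.03). MPC1, its partner in the carrier, was looked up after MPC2 had been seen and did not pass at either stage (log2 fold changes -0.03 and 0.29). PDK1, a kinase that switches pyruvate dehydrogenase off, rose at the 4-cell stage from 33.1 and 37.7 CPM to 103 and 112 CPM (limma log2 fold change 1.58 with SE 0.24, adjusted p-value 8.6e-05). The other genes of the list called higher there were PDP1 and PDP2, phosphatases that switch pyruvate dehydrogenase on, which were looked up after their values were seen (log2 fold changes 1.41 and 1.58, limma adjusted p-values 0.00119 and 0.000998).

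Side branches of the pathway were examined last. In the pentose phosphate pathway 4 of 8 tested genes fell at the 4-cell stage and 2 at the 8-cell stage, beside 25.8% and 14.5% of all tested genes, and none rose. PGLS, a lactonase, TALDO1, transaldolase, and TKT, transketolase, had log2 fold changes of -3.18, -2.24 and -2.42 at the 4-cell stage (limma adjusted p-values 3.14e-06, 7.58e-06 and 6.57e-05). At the 8-cell stage PGLS and TKT had log2 fold changes of -2.00 and -2.94 (limma adjusted p-values 0.000412 and 3.12e-05). Among genes of gluconeogenesis and glycogen, 3 of 9 tested fell in 4-cell and 4 in 8-cell embryos, beside the same 25.8% and 14.5%, and none rose. G6PC3, a glucose-6-phosphatase, and PYGL, a glycogen phosphorylase, had log2 fold changes of -3.66 and -2.41 in 4-cell and of -1.49 and -2.38 in 8-cell embryos. GBE1, the glycogen branching enzyme, fell at the 8-cell stage (log2 fold change -1.14, limma adjusted p-value 0.0171).

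**Figure D4:**
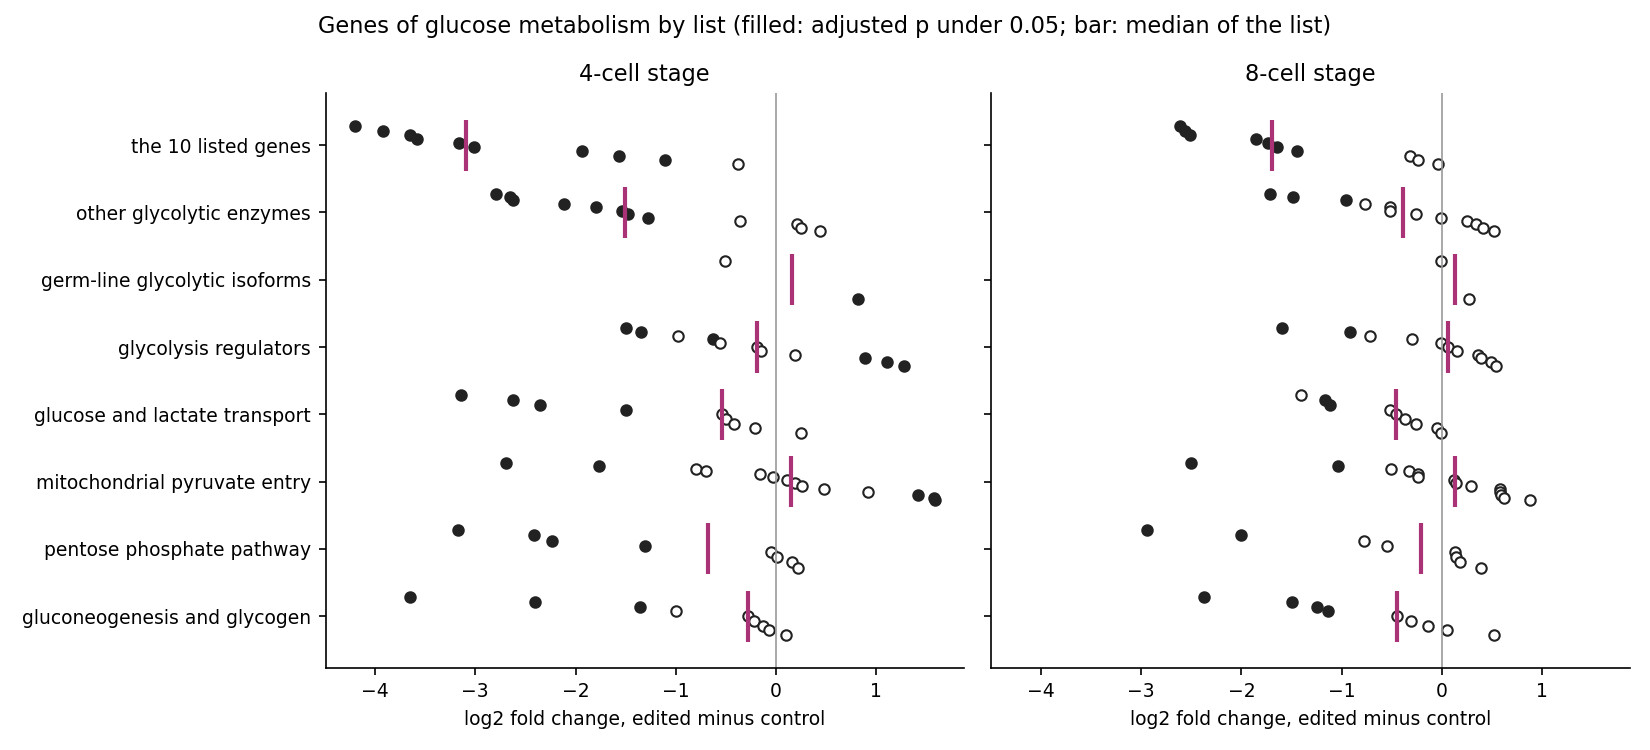
Log2 fold change of edited against control embryos (horizontal axis) for the tested genes of each list, with 1 point per gene, at the 4-cell (left) and the 8-cell stage (right). Filled points have an adjusted p-value under 0.05 and the purple bar is the median of the list, which is -3.09 and -1.69 for the 10 listed genes; points to the right of 0 are filled at the 4-cell stage only.

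Lists of cell type markers did not all move with these genes. Cumulus and granulosa markers mostly fell in 4-cell edited embryos, whereas the summed level of oocyte markers was higher there. In pooled embryos, fewer cells of a type and less RNA per cell cannot be told apart. Of 26 cumulus and granulosa markers 20 were tested. At the 4-cell stage 14 fell and 2 rose (HAS2 and GREM1), beside 25.8% and 18.9% of all tested genes. At the 8-cell stage 6 fell and none rose, beside 14.5% and 1.08% of all tested genes. SERPINE2 had the highest mean CPM of the cumulus and granulosa markers. The summed level of these markers was 1432 to 1833 CPM in 4-cell controls and 465 to 517 CPM in 4-cell edited embryos. It was 643 to 942 CPM in 8-cell controls and 467 to 495 CPM in 8-cell edited embryos. The 10 glycolytic and lactate dehydrogenase genes summed to 11254 and 11396 CPM, 1973 and 2651 CPM, 3712 and 7274 CPM, and 2467 and 2051 CPM in the same groups. FOXL2, LHCGR and AREG were at most 0.464 CPM in every library.

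The steroid-making enzymes CYP11A1 and HSD3B1 and the activin-binding protein FST were singled out of that list after their values were seen. CYP11A1 stood at 227 and 201 CPM in 4-cell controls, 3.33 and 14.5 CPM in 4-cell edited embryos, 29.1 and 133 CPM in 8-cell controls, and 12.7 and 4.97 CPM in 8-cell edited embryos. HSD3B1 stood at 40.7 and 176 CPM and FST at 7.75 and 66.2 CPM in replicates 1 and 2 of the 8-cell controls, both higher in replicate 2. In the 8-cell controls 17 of the 25 markers present were higher in replicate 2 and 8 were lower, markers below the filter included. Among the lower ones were CD44 (61.1 and 24.2 CPM), PTGS2 (13.6 and 6.21 CPM) and STAR (154 and 143 CPM). Between edited and control embryos STAR did not pass at either stage. In 8-cell edited embryos STAR stood at 174 and 213 CPM and HAS2 at 124 and 106 CPM. The whole list summed to 495 and 467 CPM there. HAS2 and GREM1 rose at the 4-cell stage (log2 fold changes 1.77 and 1.07, limma adjusted p-values 0.00026 and 0.0213), beside the 14 of 20 tested markers that fell. The part of the cumulus and granulosa markers in the results above was not tested.

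Other lists gave the following. The 20 oocyte markers summed to 21133 and 27390 CPM in 4-cell controls and to 50655 and 59003 CPM in 4-cell edited embryos, and to 51651 and 39202 CPM in 8-cell controls and 54803 and 58130 CPM in 8-cell edited embryos. Of the 20, 6 rose and 1 fell in 4-cell edited embryos, beside 18.9% and 25.8% of all tested genes. In 8-cell ones 3 rose and none fell, beside 1.08% and 14.5% of all tested genes. BTG4 had the most reads of this list, and 12 of the 20 were higher and 8 lower in replicate 2 of the 8-cell controls. Of 8 stromal and endothelial markers tested, 5 fell at each stage, beside 25.8% (4-cell) and 14.5% (8-cell) of all tested genes. These markers, of which LUM had the most reads, summed to 3137 to 6509 CPM, 1410 to 2026 CPM, 2726 to 3249 CPM and 257 to 884 CPM in the same order of groups. In the 8-cell controls LUM stood at 3052 CPM in replicate 1 and 2449 CPM in replicate 2, while 7 of the 9 genes of the list, LUM not among them, were higher in replicate 2. Sperm markers summed to at most 33.1 CPM and leukocyte and erythrocyte markers to at most 24.95 CPM in every library. The part of these lists was not tested either.

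**Figure D5:**
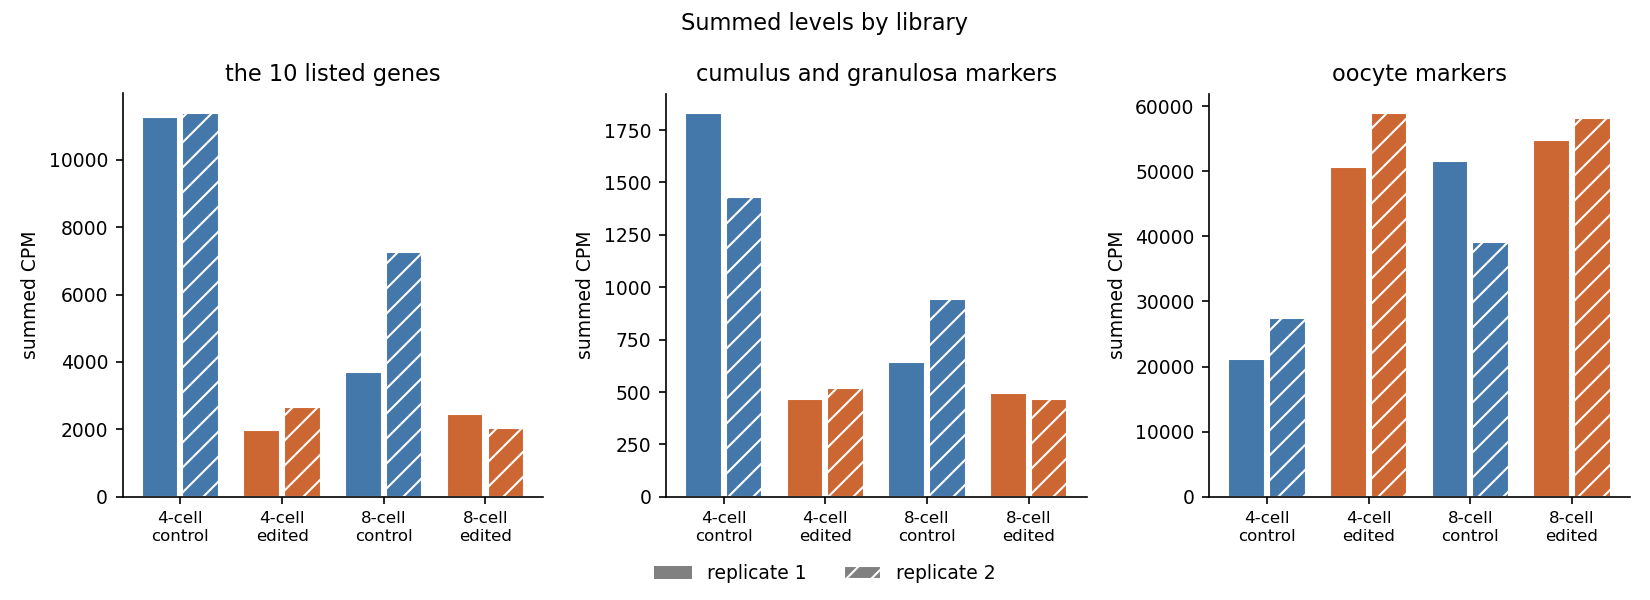
Summed CPM (vertical axis, starting at 0) of the 10 listed genes, of the 25 cumulus and granulosa markers in the table and of the 20 oocyte markers, for each library; plain bars are replicate 1 and hatched bars replicate 2. The 10 genes and the cumulus and granulosa markers are highest in the 4-cell controls (blue) and both are higher in replicate 2 of the 8-cell controls, where the sum of the oocyte markers is lower, as is BTG4, which holds most of it (33193 and 23479 CPM).

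The 10 genes were also compared by their pattern over the 8 libraries, as a description. These libraries share groups, so the coefficients reflect the group differences above. ALDOA, TPI1, GAPDH, PGK1, ENO1 and PKM correlated with each other at a Pearson r of at least 0.967 on log2(CPM + 1). LDHB correlated with them at 0.945 to 0.985, HK1 at 0.653 to 0.800 and LDHA at 0.709 to 0.774. Among the 7436 genes that averaged 10 CPM or more, those most like GAPDH were PRELID1, COMMD5 and FXYD3 (r of 0.994 each). Most like LDHB were MYL6, RPS4Y1 and IFI35 (r of 0.994, 0.992 and 0.992). The genes most like LDHA reached lower values, with ADPRM, MTRF1 and RNF128 at 0.928, 0.923 and 0.918.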

How the data were processed

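The deposited table gives CPM per gene symbol, although its name speaks of raw counts. Per the submitters' processing notes, Trim Galore 0.6.7, HISAT2 2.2.1 and featureCounts 2.0.1 were used; the genome build, annotation and scaling are not given in the sources used here. Of 12 columns, 8 match library names in the labels and 4 were used in no step. In each of those 8, 100% of positive values were whole multiples (within 0.05 reads) of 1 step, so whole reads were recovered.

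Limma 3.58.1 (R 4.3.3) with an intensity trend was fitted to log2(CPM + 1) for the 12129 genes averaging 1 CPM or more. The fit had 1 mean per group over all 8 libraries and followed a check on simulated data. That simulation changed only some genes and gave all genes the same relative spread, so it does not measure error rates in these data. P-values were adjusted over all genes by Benjamini-Hochberg. Alternatives were other pseudocounts and filters, TMM scaling, edgeR 4.0.16 and DESeq2 1.42.0 on the recovered reads, fewer libraries and a replicate block. On the recovered reads edgeR called 5172 of 14629 tested genes for editing in 4-cell and 1695 in 8-cell embryos. Limma called 5419 and 1895 of 12129. DESeq2 called 5605 of 14656 and 2248 of 14335.

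The members, lists and tests were chosen with earlier results of these data known. Named were the 10 genes, RPL12, of each pathway list up to 3 called genes of smallest p-value per stage averaging 10 CPM or more, and 3 genes most like GAPDH, LDHA and LDHB. Others are marked as chosen after their values were seen.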

Additional observations from a re-analysis of the deposited data

Results flagged for a closer look

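For GAPDH and GPI the effect of editing was called as different between the stages by limma's test of the difference itself. GAPDH lost this call under 9 alternatives and kept it under 8. GPI lost it under 10 and kept it under 7. The 8-cell effect minus the 4-cell effect was 1.72 for GAPDH (log2 fold changes -3.16 in 4-cell and -1.45 in 8-cell embryos, limma adjusted p-value 0.0416) and 1.25 for GPI (-1.57 and -0.32, limma adjusted p-value 0.0472). Edited libraries of both genes lay below the controls in 2 of 2 libraries at each stage. For GPI the closest 8-cell libraries stood at 80.4 CPM (edited) and 82.7 CPM (control), and its 8-cell change was not called. Such a separation is common in these data. In 4-cell embryos 37.5% of all tested genes had both edited libraries below both controls. The 8-cell share was 32.7%. Over the other settings the adjusted p-value of GAPDH ranged from 0.00633 to 0.177 and that of GPI from 0.0144 to 0.237, with the highest value of both without 8-cell control replicate 1.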

How the results depend on the processing

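Of 890 values recomputed for the 10 genes under 18 alternatives, 803 kept their direction and their side of the threshold, 52 lost the call, 18 gained one and 17 changed sign. All 9 calls at the 4-cell stage held under every alternative, and 6 or 7 genes were called at the 8-cell stage. There GAPDH lost its call under 3 of the 18 alternatives, the setting with no filter among them. For the stage comparison in controls (6 genes called), 0 were called with no filter on low values, by edgeR on the recovered reads and with only the libraries compared, and 0 to 7 when 1 library was left out. For the difference of the editing effect between stages (2 genes called), 0 were called with no filter, with TMM scaling and by edgeR, 4 by DESeq2, and 0 to 7 when 1 library was left out. Fitting only the libraries compared was not possible for that difference.

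Changes of sign were all in values that had not passed the test. HK1 at the 8-cell stage was 0.006 with TMM scaling, and the LDHA difference between stages was -0.003 by edgeR. Leaving out 1 library at a time, HK1 ranged from -0.465 to 0.387 and LDHA from -0.589 to 0.103 at the 8-cell stage. In the stage comparison of controls HK1 ranged from -0.819 to 0.033 and LDHA from -0.691 to 0.001. In that of edited embryos ALDOA ranged from -0.263 to 0.228, TPI1 from -0.409 to 0.166, PGK1 from -1.051 to 0.074, ENO1 from -0.254 to 0.242, PKM from -0.122 to 0.026 and LDHA from -0.45 to 0.026. The LDHA difference between stages ranged from -0.213 to 0.479. The cause was not tested.

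Same-numbered libraries deviated together with correlations of -0.302 to 0.108 over 4 pairs of groups, so the numbers were treated as names. A replicate block called 3 genes for the difference between stages: GPI lost its call (adjusted p-value 0.0615), while ALDOA (0.0486) and ENO1 (0.0449) gained one, and no other call changed. With the 8-cell control numbers crossed, an alternative chosen after seeing the data, 4 genes were called there. Over all genes, the stage comparison in controls called 1094 genes, 0 with no filter, 86 by edgeR, 173 with only the libraries compared and 1690 with crossed numbers. That in edited embryos called 628, and 5, 324, 1226 by the same first 3 settings and 1286 by DESeq2. The difference between stages called 480, and 0 with no filter, 18 by edgeR, 1065 by DESeq2 and 864 with crossed numbers. When 1 library was left out these counts ranged from 13 to 2106, 7 to 989 and 0 to 1397, and those for editing, 5419 in 4-cell and 1895 in 8-cell embryos, from 3712 to 5389 and from 1024 to 2060. The shares of all genes given as background move with them. With 2 libraries a group and at least 366 reads behind each of the 10 genes, precision is limited by the spread between libraries more than by depth.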
